A study of Mus musculus with 6 samples.

Results

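The semaphorin, plexin and neuropilin genes comprised 31 of the 54429 genes in the count table: 20 semaphorins, 9 plexins and 2 neuropilins. Membership was set by symbol alone, as every semaphorin of classes 3 to 7, every plexin of families A to D, Nrp1 and Nrp2. The choice of this family was made with earlier results of these data known. RNA was measured in primary aortic endothelial cells (EC) of adult, wild-type C57BL/6 mice, bought from a supplier and transduced with a lentiviral vector that overexpressed Meis1 (Meis1-OE) or with a YFP control vector (YFP-CTRL), with 3 libraries per condition. Cells of both conditions were plated at 100000 per well, transduced for 48 h and re-plated after a sort of YFP+CD31+VEC+ cells at 72 h, then grown to confluency, and RNA of 300000 cells, 300 to 400 ng, was sent for sequencing. The comparison asks which genes change when Meis1, a homeodomain transcription factor, is introduced into aortic EC. The promoter that drives Meis1 in the vector was not given in the sources used here, and neither was the number of animals behind the purchased cells.

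Semaphorins are guidance ligands. Those of class 3 are secreted, those of classes 4, 5 and 6 span the membrane, and the class 7 protein is held in the membrane by a lipid anchor. Plexins are their receptors and act on small GTPases, while neuropilins bind most class 3 ligands together with a plexin and also bind VEGF. In endothelium these genes are known for steering vessel sprouts, for cell adhesion and for vessel permeability.

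Values of single libraries are given in the order A, B, C, the letters they carry in the table. Library totals lay between 34176642 and 47956605 counts. Meis1, the overexpressed gene, had 39, 58 and 85 counts in the YFP-CTRL libraries and 135325, 157828 and 149221 in the Meis1-OE libraries, so that every library matched its label. All 9 endothelial markers examined were above 3 counts, with summed levels of 3203 to 4031 CPM (TMM-normalized counts per 1000000) in Meis1-OE EC and 4387 to 6055 CPM in YFP-CTRL EC. These markers did not move together. Mean levels in Meis1-OE EC were lower for Pecam1, Cdh5 (1316 against 2143 CPM), Tek, Kdr (319 against 751 CPM) and Egfl7. They were higher for Tie1, Erg, Emcn and Vwf (63.0 against 7.25 CPM). Of the 5 lymphatic markers, Lyve1 was lower in Meis1-OE EC (mean 79.4 against 284 CPM), Prox1 and Reln had at most 2 and 4 counts, and Pdpn and Ccl21a had none. The libraries also differed in 15 S and G2/M phase genes, whose mean level on the log2(CPM) scale was 6.52, 6.52 and 6.55 in Meis1-OE EC against 4.30, 5.30 and 6.45 in YFP-CTRL EC. YFP-CTRL library C thus lay close to the Meis1-OE libraries on this score, and libraries A and B lay below them.

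Of the 31 members, 25 passed the filter on low counts and were tested with edgeR's quasi-likelihood test, Benjamini-Hochberg adjusted over 16065 genes. Of these, 5 genes passed an adjusted p of 0.05 as higher in Meis1-OE EC (Sema7a, Sema3d, Sema5a, Sema6c and Plxnb2), 1 was lower (Plxna2), and 19 did not pass. Over all genes tested, 4.14% were higher and 2.73% were lower. Among the 5, Sema3d exceeded the cutoff of the filter on low counts in the Meis1-OE libraries alone. Sema5a and Sema6c exceeded it in all 3 Meis1-OE libraries but in only 2 YFP-CTRL libraries, and the filter asks for 3. These genes thus entered the test through the group where they are high, so the members' count is given as a description. The median log2 fold change was 0.37 over the 25 members and 0.01 over all genes. All 3 Meis1-OE libraries were above all 3 YFP-CTRL libraries for 9 members and below them for 3, with a background of 17.2% and 15.9% over all genes. On library totals without TMM factors, which moved the median of all genes to 0.15, 6.52% of all genes passed as higher and 1.11% as lower, and 6 members were higher and 1 was lower.

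**Figure D1:**
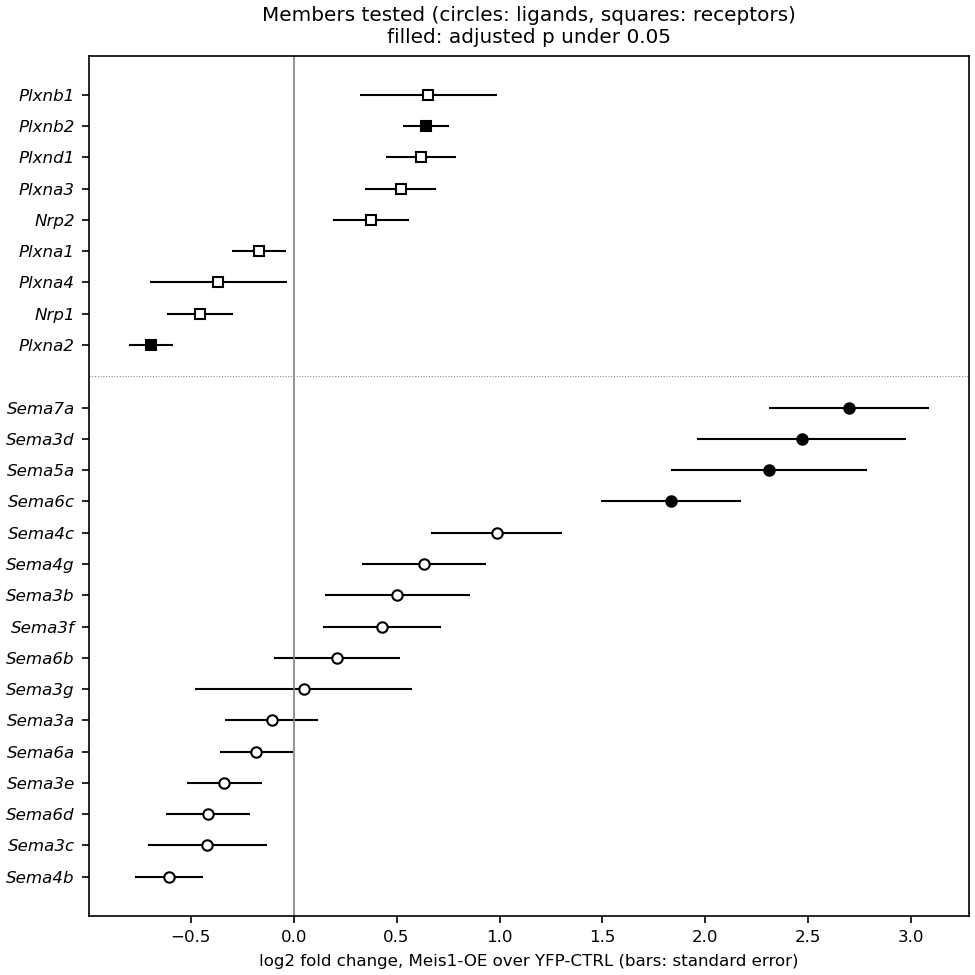
Log2 fold change of each of the 25 tested members, Meis1-OE over YFP-CTRL (x axis), with its standard error as a bar. Circles are ligands, squares are receptors, and filled symbols passed an adjusted p of 0.05. The 4 filled ligands lie between 1.83 and 2.70, and the 2 filled receptors at 0.64 and -0.69.

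The plot of fold changes shows the called ligands at the top of their panel, apart from the other 12, while the called receptors had smaller fold changes with smaller standard errors.

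The ligands were examined first. Among 16 tested semaphorins, 4 were higher, none was lower and 12 did not pass by edgeR. At an unadjusted p under 0.05, 8 members were on the higher side and 3 on the lower side, with 12.8% and 13.4% of all genes. Among the ligands, Sema4c was then also on the higher side and Sema4b on the lower side, and DESeq2 called both (adjusted p = 0.0300 and 0.0326). The called ligands came from 4 classes: 1 of the 7 tested in class 3, the only tested gene of class 5, 1 of 4 in class 6, and Sema7a, the only member of class 7. None of the 3 tested genes of class 4 was called.

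Sema7a, the lipid-anchored semaphorin known to act through the integrin chain Itgb1 and through plexin C1, had the largest fold change of the tested members. The gene (chr9:57939596-57962865, GRCm38.p6) had 291, 247 and 169 counts in Meis1-OE EC against 18, 24 and 56 in YFP-CTRL EC. The lowest Meis1-OE library was well above the highest YFP-CTRL library. Its mean was 5.15 ± 1.38 CPM against 0.784 ± 0.390 CPM (SD, n = 3 each), which gave a log2 fold change of 2.70 (standard error 0.39, adjusted p = 0.0116 from edgeR). Of the receptors named for it, Itgb1 was at 603 ± 61.0 CPM in Meis1-OE EC against 677 ± 74.0 CPM (SD, n = 3 each) and did not pass (adjusted p = 0.453 from edgeR), while Plxnc1 never exceeded 3 counts and was not detectable at this depth.

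Sema6c, a transmembrane ligand of class 6 (chr3:95160420-95174050, GRCm38.p6), had 53, 65 and 69 counts in Meis1-OE EC against 18, 10 and 17 in YFP-CTRL EC. The groups did not overlap. Its mean was 1.36 ± 0.176 CPM against 0.383 ± 0.143 CPM (SD, n = 3 each), which gave a log2 fold change of 1.83 (standard error 0.34, adjusted p = 0.0255 from edgeR). YFP-CTRL library A, the shallowest and the lowest in S and G2/M phase genes, had the highest Sema6c level of its group. Sema6c exceeded the filter's cutoff, which uses no TMM factors, in only 2 YFP-CTRL libraries, so it entered the test through the Meis1-OE libraries. In YFP-CTRL library B it missed the cutoff narrowly, and its TMM-normalized level there was 0.245 CPM.

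Sema5a, a membrane ligand with thrombospondin repeats (chr15:32244813-32696341, GRCm38.p6), and Sema3d, a secreted class 3 ligand (chr5:12383161-12588953), were both near the limit of counting in YFP-CTRL EC. Sema5a had 53, 68 and 67 counts in Meis1-OE EC against 3, 11 and 20 in YFP-CTRL EC. Sema3d had 24, 25 and 27 counts against 1, 3 and 8 in the same order. Within YFP-CTRL EC both were lowest in library A and highest in library C, and every Meis1-OE library lay above all 3. The S and G2/M phase score had this order, and so had the library totals and the Meis1 level (1.15, 1.42 and 1.87 CPM). Which of these the order goes with was not tested, and its share over all genes was not counted. The called members Sema7a (0.530, 0.588 and 1.23 CPM) and Plxnb2 (165, 172 and 198 CPM) had the same order in YFP-CTRL EC. So did Sema4c and Plxnd1, among other members that were not called. The single count of Sema3d in YFP-CTRL library A has an exact 95% Poisson interval of 0.0253 to 5.57 counts, and the 8 counts in library C one of 3.45 to 15.8, which cover counting error only. The log2 fold change was 2.31 for Sema5a (standard error 0.48, adjusted p = 0.0348) and 2.47 for Sema3d (standard error 0.51, adjusted p = 0.0345, both edgeR). Sema3d exceeded the filter's 0.226 CPM, here without TMM factors, in all Meis1-OE libraries and in none of the YFP-CTRL libraries. Sema5a exceeded it in all Meis1-OE libraries and in only 2 YFP-CTRL libraries. Both therefore entered the test through the group where they are high. Plxnb3, which is known to bind Sema5a, had at most 3 counts in any library.

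The called ligands lay in the lower part of the order of ligand levels. Divided by exon length, Sema7a was at 1.56 ± 0.419 CPM per kb in Meis1-OE EC, Sema6c at 0.229 ± 0.0297, Sema5a at 0.113 ± 0.0151 and Sema3d at 0.0798 ± 0.00419 (SD, n = 3 each). Sema3f, a secreted ligand that binds neuropilin 2, was the most abundant ligand in both conditions, at 70.8 ± 10.01 CPM per kb in Meis1-OE EC and 52.6 ± 20.9 in YFP-CTRL EC. In Meis1-OE EC it was followed by Sema4c, Sema4b, Sema6b, Sema6d and Sema3a, at 27.9, 17.9, 17.1, 12.2 and 10.8 CPM per kb, where the values of Sema4b and Sema6b overlapped. In YFP-CTRL EC the values of each neighbour in the order from Sema3f down to Sema3c overlapped. Summed over the ligands, the level was 815, 847 and 912 CPM in Meis1-OE EC against 597, 837 and 1065 CPM in YFP-CTRL EC. The YFP-CTRL libraries span the Meis1-OE libraries on this sum, with an exact two-sided permutation p of 0.8.

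**Figure D2:**
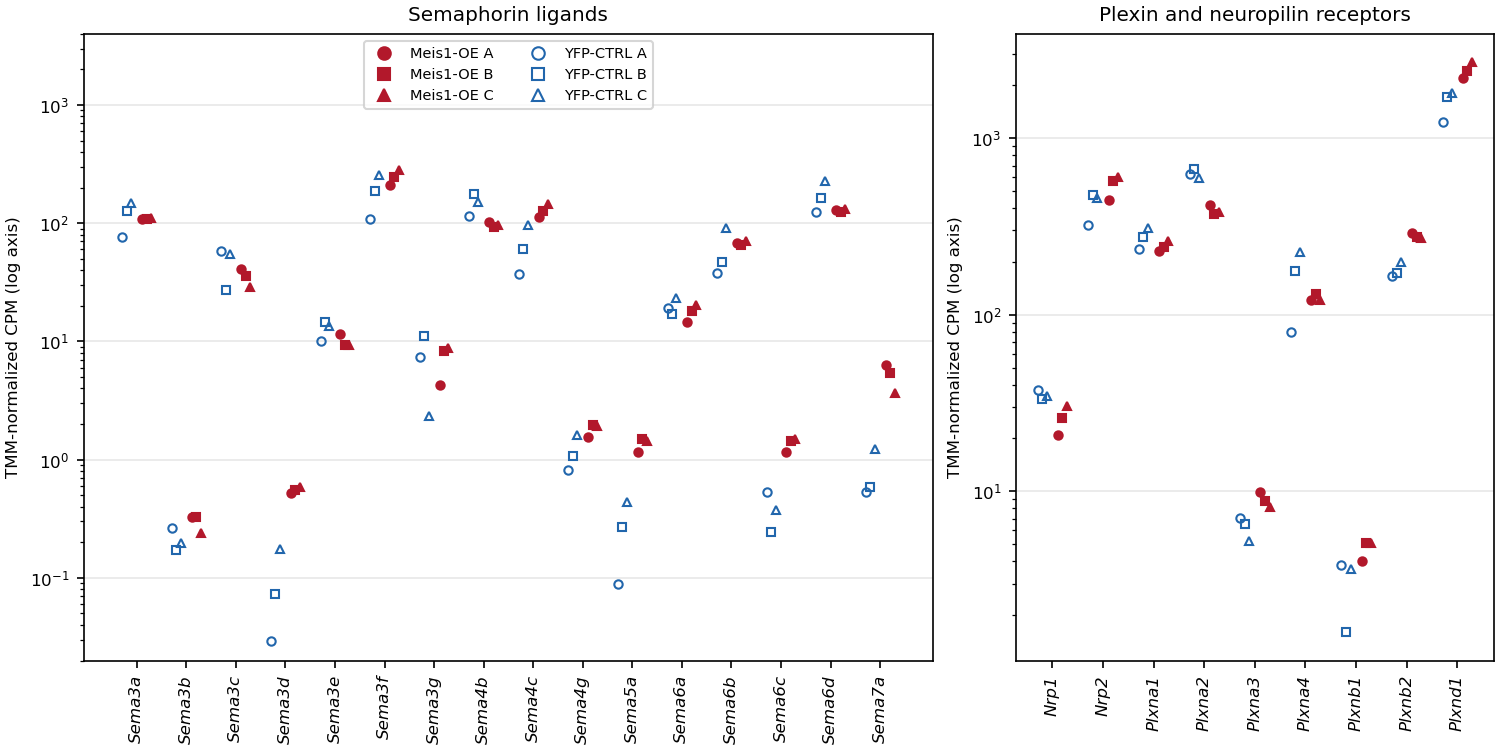
TMM-normalized CPM (log axis) of each tested ligand (left) and receptor (right) in every library. Open blue symbols are YFP-CTRL and filled red symbols Meis1-OE, with circles, squares and triangles for libraries A, B and C. The Meis1-OE symbols of Sema3d, Sema5a, Sema6c and Sema7a lie above all YFP-CTRL symbols, and the YFP-CTRL symbols are the more widely spread for 22 of the 25 members.

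The plot of levels also shows how much the YFP-CTRL libraries differed among themselves. The highest library was a median of 1.93 times the lowest in YFP-CTRL EC and 1.27 times in Meis1-OE EC over the 25 members, and 1.48 and 1.18 times over all genes. The range was wider in YFP-CTRL EC for 88% of members and for 78.8% of all genes with a value in every library.

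The other class 3 ligands, all secreted, did not pass. Sema3a, which binds neuropilin 1, was at 108, 108 and 110 CPM in Meis1-OE EC against 76.2, 127 and 148 CPM in YFP-CTRL EC (log2 fold change -0.11, adjusted p = 0.809 from edgeR). Sema3f was at 212, 247 and 282 CPM against 108, 188 and 254 CPM in the same order (0.43, adjusted p = 0.384). In both genes the groups overlapped. YFP-CTRL library A was the lowest of its group and library C the highest, as on the S and G2/M phase score and in library totals. Sema3c, known for its part in shaping the cardiac outflow tract, was at 40.7, 35.7 and 28.7 CPM against 58.4, 27.1 and 55.1 CPM (-0.42, adjusted p = 0.397). Sema3e, which binds plexin D1 without a neuropilin, was at 11.5, 9.36 and 9.35 CPM against 10.1, 14.5 and 13.6 CPM (-0.34, adjusted p = 0.284). The groups overlapped for both of these ligands. Sema3g was at 4.27, 8.28 and 8.79 CPM against 7.33, 11.01 and 2.33 CPM (0.048, adjusted p = 0.965), and Sema3b at 0.328, 0.330 and 0.238 CPM against 0.265, 0.172 and 0.198 CPM (0.50, adjusted p = 0.404). Both overlapped between the groups, and Sema3g ranged widely within each.

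No class 4 ligand passed in edgeR. Sema4c, a transmembrane ligand of plexin B2, was at 112, 127 and 145 CPM in Meis1-OE EC against 36.8, 60.6 and 96.2 CPM in YFP-CTRL EC. Sema4b, a transmembrane ligand of the same class, was at 103, 93.0 and 96.6 CPM against 115, 178 and 152 CPM. Neither overlapped between the groups, Sema4c lying on the higher side in Meis1-OE EC and Sema4b on the lower side. Their log2 fold changes were 0.99 (standard error 0.32, adjusted p = 0.109) and -0.60 (standard error 0.17, adjusted p = 0.0735, both edgeR). Sema4c passed in 2 of 14 alternatives, DESeq2 and the setting without YFP-CTRL library C, where its log2 fold change was 1.37 (edgeR adjusted p = 0.00671) and 16.5% of all genes passed as higher. With the S and G2/M phase score as a covariate it was at 0.33 (adjusted p = 0.280). Leaving out YFP-CTRL library A, Sema4b was at -0.77 with 0.0228, a setting in which 3.73% of all genes passed as higher and 2.63% as lower. Sema4g was at 1.55, 1.98 and 1.94 CPM against 0.824, 1.08 and 1.61 CPM, with overlapping groups and a log2 fold change of 0.63 (adjusted p = 0.232 from edgeR). Sema4a, Sema4d and Sema4f, with at most 10, 14 and 6 counts in any library, did not pass the filter, and Sema5b had no count.

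Among the other class 6 ligands, which are transmembrane and bind A-type plexins, Sema6a was at 14.6, 17.9 and 20.2 CPM in Meis1-OE EC against 19.2, 17.1 and 23.4 CPM in YFP-CTRL EC (log2 fold change -0.18, adjusted p = 0.554 from edgeR). Sema6b was at 67.6, 64.9 and 71.3 CPM against 37.9, 46.6 and 91.6 CPM (0.21, adjusted p = 0.705), and Sema6d at 130, 124 and 131 CPM against 125, 164 and 225 CPM (-0.42, adjusted p = 0.245). All overlapped, and for Sema6b and Sema6d YFP-CTRL library A was the lowest of its group and library C the highest, while the Meis1-OE values lay close together. With YFP-CTRL library C left out, Sema6b had a log2 fold change of 0.67 (edgeR adjusted p = 0.00853), a setting in which 16.5% of all genes passed as higher and 15.2% as lower.

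The receptors were examined next. Of 9 tested, Plxnb2 was higher, Plxna2 was lower and 7 did not pass by edgeR, and the groups did not overlap for 4 members on the higher side and 2 on the lower side (17.2% and 15.9% over all genes). Unlike the called ligands, the called receptors were abundant.

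Plxnb2, the receptor of Sema4c and a known receptor of angiogenin, was at 289, 275 and 272 CPM in Meis1-OE EC against 165, 172 and 198 CPM in YFP-CTRL EC. Plxna2, a receptor for class 6 ligands and, with a neuropilin, for class 3 ligands, was at 418, 371 and 381 CPM against 624, 669 and 596 CPM. Every Meis1-OE library was above every YFP-CTRL library for Plxnb2 and below for Plxna2. The means were 279 ± 9.41 and 178 ± 17.6 CPM for Plxnb2 and 390 ± 24.6 and 630 ± 37.1 CPM for Plxna2 (SD, n = 3 each). The log2 fold change was 0.64 for Plxnb2 (standard error 0.11, adjusted p = 0.0203) and -0.69 for Plxna2 (standard error 0.11, adjusted p = 0.0139, both edgeR). The deposited counts of Plxna2 were not whole in at least 1 library, and the RefSeq annotation places Gm46202 in overlap with it (chr1:194619791-194816869, GRCm38.p6) and Mir7118 in overlap with Plxnb2 (chr15:89155546-89182018).

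Plxnd1, the receptor of Sema3e and the plexin best known from endothelium, was by far the most abundant member, at 338 ± 34.5 CPM per kb in Meis1-OE EC and 220 ± 42.5 in YFP-CTRL EC (SD, n = 3 each). It was at 2200, 2395 and 2693 CPM in Meis1-OE EC against 1237, 1703 and 1813 CPM in YFP-CTRL EC. The groups did not overlap, but the log2 fold change of 0.62 (standard error 0.17) had an adjusted p of 0.0748 from edgeR. It passed in 3 of 14 alternatives, with DESeq2 (adjusted p = 0.0359), on library totals (0.0249) and without YFP-CTRL library C (0.0248). With the S and G2/M phase score as a covariate it was at 0.33 on the log2 scale (adjusted p = 0.312 from edgeR), and over the libraries left out in turn it was 0.45 to 0.71.

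The remaining A-type and B-type plexins did not pass. Plxna1, which pairs with neuropilins and binds Sema6d, was at 229, 242 and 261 CPM in Meis1-OE EC against 235, 275 and 311 CPM in YFP-CTRL EC (log2 fold change -0.17, adjusted p = 0.456 from edgeR). Plxna4 was at 121, 132 and 122 CPM against 79.7, 177 and 226 CPM (-0.37, adjusted p = 0.521), and it overlaps the antisense gene Plxna4os1, whose reads cannot be told apart where counting is not stated to use strand. For both the groups overlapped, Plxna4 having its lowest and highest values in YFP-CTRL EC. Plxna3 was at 9.91, 8.86 and 8.12 CPM against 7.04, 6.52 and 5.22 CPM (0.52, adjusted p = 0.117), and Plxnb1, a receptor of Sema4d, at 4.03, 5.07 and 5.10 CPM against 3.80, 1.59 and 3.63 CPM (0.65, adjusted p = 0.260). In these 2 genes the Meis1-OE libraries lay above the YFP-CTRL libraries without overlap. Plxnb3 and Plxnc1 were at or under 3 counts everywhere, a floor of 0.0626 to 0.0878 CPM by library on library totals without TMM factors.

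Ordered per kb of exon, the receptors of YFP-CTRL EC ran from Plxnd1 through Nrp2, Plxna2, Plxna1 and Plxnb2 at 44.0, 41.7, 30.3 and 24.4 CPM per kb, where Nrp2 overlapped Plxna2 and Plxna1 overlapped Plxnb2. In Meis1-OE EC Nrp2 at 57.0 CPM per kb was followed by Plxnb2 at 38.1, Plxna1 at 27.0 and Plxna2 at 25.8, of which Plxna1 and Plxna2 overlapped. Plxna4, Nrp1, Plxna3 and Plxnb1 came last in both orders.

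Nrp1 and Nrp2, the co-receptors, had log2 fold changes of opposite sign. Nrp1 was at 20.7, 25.9 and 30.4 CPM in Meis1-OE EC against 37.6, 33.3 and 34.6 CPM in YFP-CTRL EC (log2 fold change -0.45, adjusted p = 0.131 from edgeR). Nrp2 was at 448, 575 and 603 CPM against 323, 474 and 457 CPM (0.37, adjusted p = 0.246). The groups did not overlap for Nrp1 and overlapped for Nrp2. Within each library Nrp2 had 21.7, 22.2 and 19.8 counts per count of Nrp1 in Meis1-OE EC against 8.61, 14.2 and 13.2 in YFP-CTRL EC. All 3 Meis1-OE ratios were higher, with a difference of 0.85 on the log2 scale and an exact two-sided permutation p of 0.1, the smallest that 3 against 3 libraries allow. Nrp2 is known from venous and lymphatic endothelium, and beside these values the summed lymphatic list, which was nearly all Lyve1, was at 76.2 to 84.1 CPM in Meis1-OE EC and 161 to 461 CPM in YFP-CTRL EC. Its part in the neuropilin values was not tested, and in bulk RNA fewer cells of a type and less RNA per cell cannot be told apart.

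Ratios within a library need no scaling between libraries. Plxnb2 had 0.693, 0.740 and 0.714 counts per count of Plxna2 in Meis1-OE EC against 0.265, 0.257 and 0.333 in YFP-CTRL EC, a pair chosen after its values were seen. Plxnd1 made up 67.2%, 69.9% and 72.0% of all plexin counts in Meis1-OE EC and 52.6%, 56.7% and 57.5% in YFP-CTRL EC. Neither measure overlapped between the groups. The summed plexin level was 3272, 3428 and 3741 CPM against 2351, 3005 and 3153 CPM, with no overlap and an exact two-sided permutation p of 0.1.

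**Figure D3:**
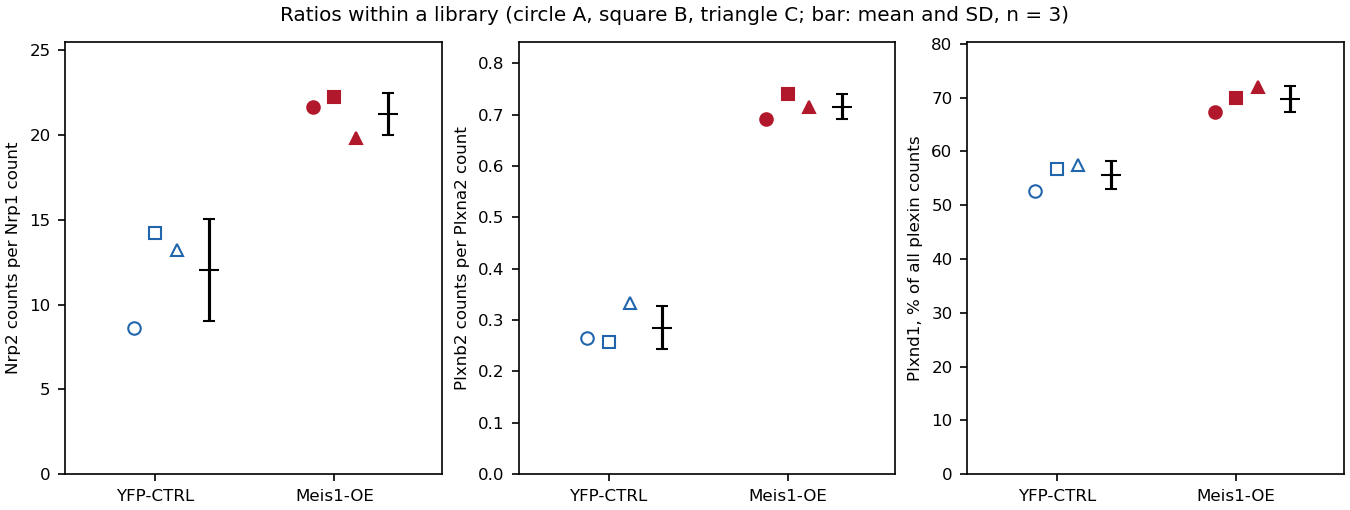
Ratios within each library by condition: Nrp2 counts per Nrp1 count (left), Plxnb2 counts per Plxna2 count (middle) and Plxnd1 as a percentage of all plexin counts (right), on linear axes from 0. Circles, squares and triangles are libraries A, B and C, and bars give the mean and SD of 3 libraries. In each panel all Meis1-OE points lie above all YFP-CTRL points.

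The plot of ratios shows that YFP-CTRL library A had the lowest ratio of Nrp2 to Nrp1 of all libraries, while the YFP-CTRL ratios of Plxnb2 to Plxna2 were all at or under 0.333.

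The 6 called members were also fitted with the S and G2/M phase score as a covariate and with single libraries left out. The score was higher in every Meis1-OE library (6.52 to 6.55) than in every YFP-CTRL library (4.30 to 6.45). Its slope thus rests almost wholly on the YFP-CTRL libraries, and score and condition cannot be fully told apart. Whether Meis1 itself changes the score was not tested. With that score as a covariate, Sema7a (log2 fold change 2.11, adjusted p = 0.0380) and Plxna2 (-0.65, adjusted p = 0.0367) still passed by edgeR. Sema6c (2.09, adjusted p = 0.0627) and Plxnb2 (0.50, adjusted p = 0.0532) did not pass, and neither did Sema5a (1.45, adjusted p = 0.118) or Sema3d (1.53, adjusted p = 0.141). In the same model Sema6d (-0.84, adjusted p = 0.00967) and Plxna4 (-1.06, adjusted p = 0.0321) passed on the lower side, so that 1 member was higher and 3 were lower, with 2.10% and 1.74% of all genes called. Without Meis1-OE library B or without YFP-CTRL library B no member was called higher, and 0.701% and 1.24% of all genes were. The log2 fold changes without Meis1-OE library B were 2.66 for Sema7a, 2.48 for Sema3d, 2.25 for Sema5a, 1.80 for Sema6c and 0.66 for Plxnb2, close to those over all libraries. Without YFP-CTRL library C, 9 members were called higher, and 16.5% of all genes were. With at least 10 counts required in every library, 3 members were higher, against 3.29% of all genes. DESeq2 called all 6 members, and its counts were 7 higher and 2 lower, where 6.18% and 6.13% of all genes passed.

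**Figure D4:**
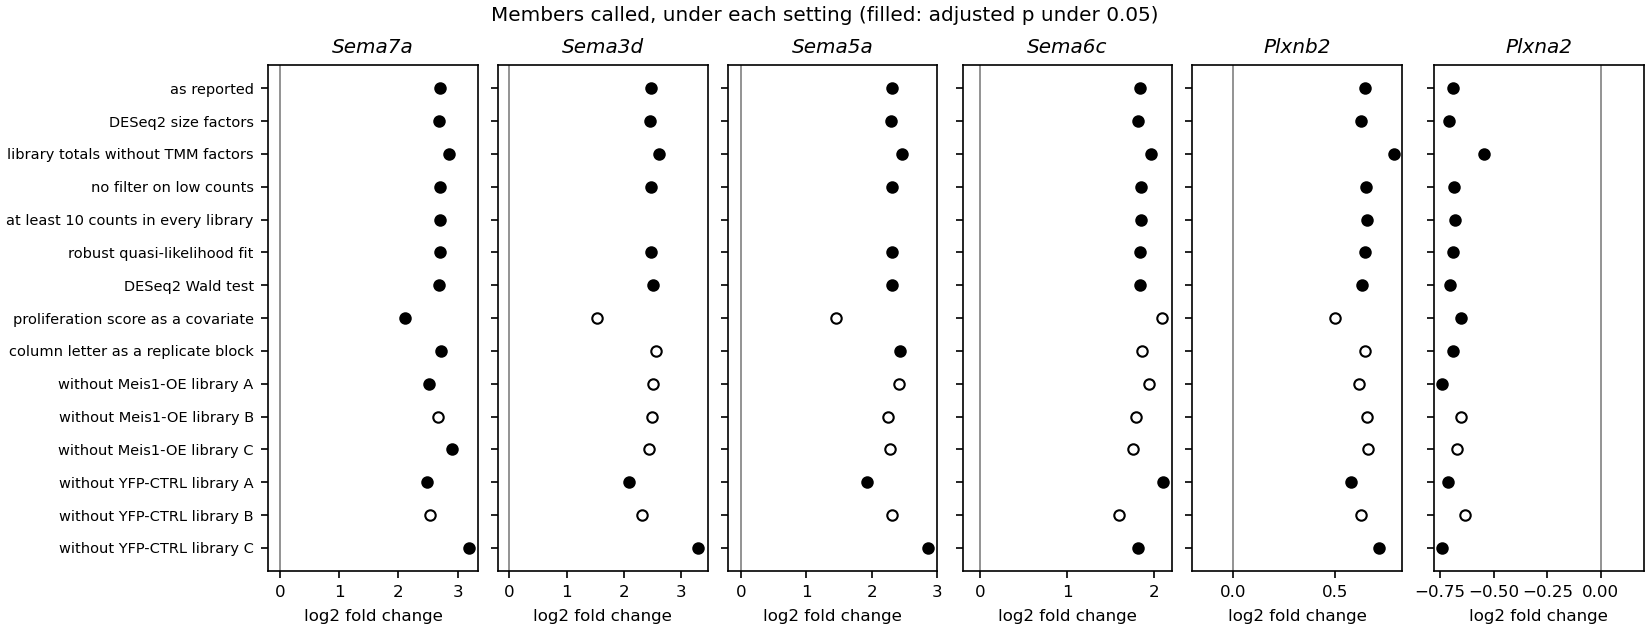
Log2 fold change (x axis, own range per panel) of the 6 called members under each setting named at the left. Filled circles passed an adjusted p of 0.05 and open circles did not, and settings whose filter removed the gene have no circle. The sign is the same in every setting, and Sema7a passes in 12 of 14 alternatives while Sema3d passes in 7 of 13.

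The plot of settings shows most open circles in the settings that leave out a library or add the S and G2/M phase score. Plxna2 passed in 11 of 14 alternatives, Plxnb2 and Sema6c in 8 of 14, and Sema5a in 8 of 13.

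The sequence before the RefSeq starts of the members was searched for TGACAG, a core motif that Meis-type homeodomain proteins are known to bind, and for TGATTGAC, a motif of Pbx together with a partner. The windows were the 250 bases before each RefSeq start (build GRCm38.p6, both strands searched). The motifs share the letters TGAC, so matches to them can overlap. TGACAG occurred in 15.9% of 32851 windows and in 7 of the 37 windows of members (18.9%, 26 members with a window). Among the called members it occurred in 3 of 8 windows, those of Sema7a, Plxna2 and the downstream start of Sema6c. TGATTGAC occurred in 0.691% of all windows and in none of the members' windows. These 3 windows are printed, with the match in capitals, because they belong to called members and hold a match. Of the called members' windows without a match, only that of Sema3d is printed, for contrast. Those of Sema5a, Plxnb2 and the upstream start of Sema6c are not printed. Each is given 5′ to 3′ on the gene's strand, which is plus for all 4. The printed windows of Sema7a and Sema6c lie within the annotated span of the gene, which begins at an earlier position. Those of Plxna2 and Sema3d reach into it at their 3′ end. A match is a description of the letters and not a measured binding site.
Sema7a, chr9:57939862-57940111: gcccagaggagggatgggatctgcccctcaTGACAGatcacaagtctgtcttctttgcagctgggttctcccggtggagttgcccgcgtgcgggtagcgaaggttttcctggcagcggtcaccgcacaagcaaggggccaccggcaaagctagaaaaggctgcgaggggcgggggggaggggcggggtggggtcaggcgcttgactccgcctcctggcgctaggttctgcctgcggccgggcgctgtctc
Sema6c, chr3:95164089-95164338: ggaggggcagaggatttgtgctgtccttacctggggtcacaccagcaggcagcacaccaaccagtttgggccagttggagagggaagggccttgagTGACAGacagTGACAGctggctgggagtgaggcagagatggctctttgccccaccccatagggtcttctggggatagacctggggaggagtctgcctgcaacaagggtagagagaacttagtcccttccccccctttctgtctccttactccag
Plxna2, chr1:194619579-194619828: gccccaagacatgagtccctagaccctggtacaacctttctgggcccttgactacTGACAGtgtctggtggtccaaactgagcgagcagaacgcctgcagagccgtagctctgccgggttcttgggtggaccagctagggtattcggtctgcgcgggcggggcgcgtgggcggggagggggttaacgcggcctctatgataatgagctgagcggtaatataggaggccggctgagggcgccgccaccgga
Sema3d, chr5:12382916-12383165: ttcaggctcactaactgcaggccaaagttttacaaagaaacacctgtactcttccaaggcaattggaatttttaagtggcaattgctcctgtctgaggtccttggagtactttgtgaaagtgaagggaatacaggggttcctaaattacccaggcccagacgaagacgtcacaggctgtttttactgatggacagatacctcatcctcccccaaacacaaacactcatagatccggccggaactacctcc

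In these windows the match lay 220 bases before the start for Sema7a, 195 for Plxna2, and 154 and 144 for Sema6c, counted to its first base and all on the gene's strand. Sema7a and Sema6c were higher in Meis1-OE EC and Plxna2 was lower. The remaining windows with a match belonged to Sema4d, which did not pass the filter, and Sema3g, which did not pass the test.

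Of 53 other genes of semaphorin signalling, 46 were tested, 3 were higher (6.52%), 7 were lower (15.2%) and 36 did not pass by edgeR, with a median log2 fold change of 0.07. Over all genes tested, 4.14% were higher and 2.73% were lower. The list was drawn up with earlier results of these data known, so its shares are given as a description and not as a test. Among co-receptors, Nrcam, an adhesion molecule that pairs with neuropilins, was higher (8.03, 12.3 and 8.85 CPM in Meis1-OE EC against 1.53, 2.03 and 2.51 CPM in YFP-CTRL EC, log2 fold change 2.26, adjusted p = 0.00632), and 7 others did not pass. Kdr, the VEGF receptor that associates with neuropilins and plexin D1, was at 319 ± 53.8 against 751 ± 293 CPM (SD, n = 3 each), without overlap. Its adjusted p was 0.0504 from edgeR and 0.00134 from DESeq2. Vegfc, a ligand of neuropilin 2, was at 8.86, 14.1 and 11.6 CPM against 1.001, 0.833 and 1.91 CPM (3.19, adjusted p = 0.00548 from edgeR). Neither Nrcam nor Vegfc overlapped between the groups, and both passed in all 14 alternatives.

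Among the 16 exchange factor and GTPase genes, Mras was higher and 4 were lower, beside the same 4.14% and 2.73% of all genes. The lower genes were Rnd1 and Rnd3, small GTPases that bind the plexin cytoplasmic domain (log2 fold changes -1.38 and -1.08, adjusted p = 0.0454 and 0.0144 from edgeR), Rap1b, a substrate of the plexin GTPase-activating domain (-0.75, adjusted p = 0.0435), and Rras2 (-0.90, adjusted p = 0.0476). Mras had a log2 fold change of 1.07 (adjusted p = 0.00762). Of 12 tested effectors, Crmp1 and Dpysl3 were lower, both collapsin response mediator proteins, which act downstream of class 3 semaphorins on the cytoskeleton. Crmp1 was at 9.10, 7.76 and 8.75 CPM in Meis1-OE EC against 21.9, 32.3 and 33.0 CPM in YFP-CTRL EC (-1.77, adjusted p = 0.00489 from edgeR). Dpysl3 was at 250 ± 9.58 against 587 ± 160 CPM (SD, n = 3 each; -1.23, adjusted p = 0.0142). Adamts1, a secreted protease, was lower among the adaptors, proteases and other neuropilin ligands (-0.95, adjusted p = 0.0489).

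**Figure D5:**
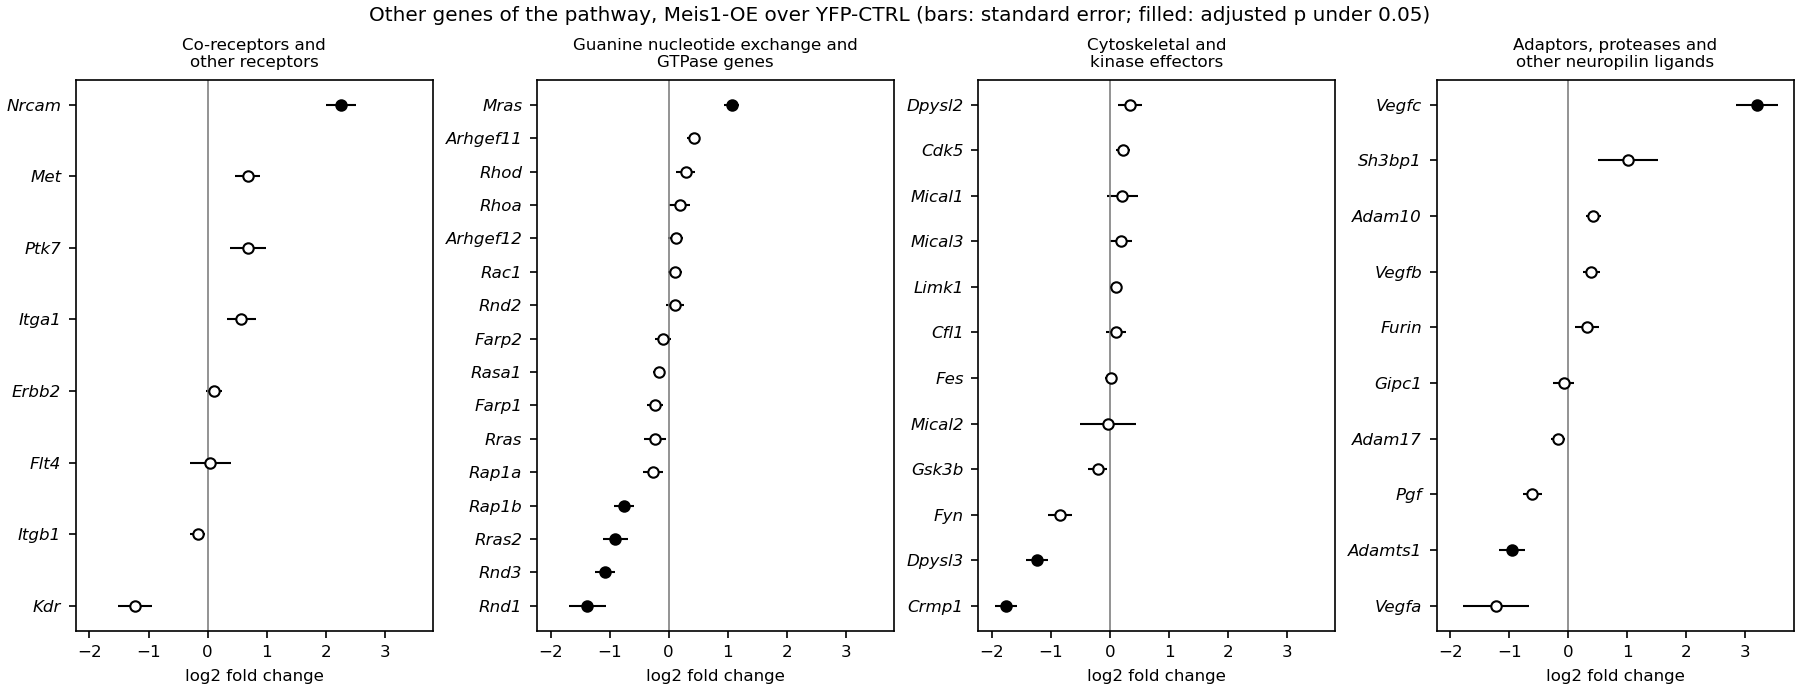
Log2 fold change of 46 tested genes of semaphorin signalling, Meis1-OE over YFP-CTRL (x axis), in 4 groups, with bars for the standard error and filled circles for an adjusted p under 0.05. The filled circles on the right are Nrcam, Mras and Vegfc, and the 7 on the left include Crmp1 and Dpysl3.

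The plot of the signalling genes shows 4 of the 7 lower genes among the GTPases. Crmp1 passed in all 14 alternatives, Mras in 12, Dpysl3 in 10 and Rnd3 in 9, while Rnd1 passed in 7, Rap1b in 6 and Adamts1 and Rras2 in 4 each.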

How the data were processed

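Per the labels, 6 libraries were made from aortic EC, 3 per condition, and the study describes them as independent replicates, so p-values measure the spread between these libraries. The estimated counts of reads per gene, without normalization, are what the authors deposited, as a table of all 6 libraries. The submitters' processing notes name build mm10. The aligner, the counting tool, the annotation and the strand setting were not given in the sources used here. In each library 4934 to 5456 genes had values more than 0.01 from a whole number, among them Plxna2, Sema3a, Sema4b and Sema4d, and counts were rounded.

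Analysis used R 4.3.3 with edgeR 4.0.16 (TMM, filterByExpr, quasi-likelihood test), DESeq2 1.42.0 as an alternative, limma 3.58.1, and Python 3.11.15 with matplotlib 3.10.9. Genes passed at an adjusted p of 0.05 (Benjamini-Hochberg, 16065 genes), and the biological coefficient of variation was 0.233. Standard errors were derived from the F statistic. Totals ran from 34176642 to 47956605 counts, and 3 counts was taken as the limit of detection. Intervals and floors describe counting error alone, because the sources used here name no molecular identifiers and PCR copies are not independent. Exon lengths came from GENCODE annotation of build NCBIM37 by symbol and served only for levels per kb. Promoter windows came from RefSeq on GRCm38.p6. The procedure was tested on counts simulated with the same dispersion in both groups. That simulation does not cover the wider spread of the YFP-CTRL libraries or their differences in the S and G2/M phase score.

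Every tested member is named, with up to 10 other signalling genes past the threshold by size of fold change. Kdr, Itgb1 and the marker genes are named beyond that rule, and the ratio of Plxnb2 to Plxna2, the share of Plxnd1 and the number of windows printed were chosen after values were seen. The members and all lists were chosen with earlier results of these data known. Alternatives were other scalings and filters, a robust fit, DESeq2, the S and G2/M phase score as a covariate, the column letter as a replicate block, and each library left out in turn.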

Additional observations from a re-analysis of the deposited data

How the results depend on the processing

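The number of members called higher was 5, and it was 3 with at least 10 counts in every library, which removes Sema3d, Sema5a and Sema3b before testing, 1 with the S and G2/M phase score as a covariate, and 0 to 9 with a library left out. The number called lower was 1, against 2 by DESeq2, 3 with the covariate and 0 to 3 with a library left out. Of the other signalling genes, 3 were higher, against 5 on library totals, 5 by DESeq2 and 2 to 11 with a library left out. The number lower was 7, against 3 on library totals, 10 by DESeq2, 3 with the covariate and 1 to 12 with a library left out. The causes were not tested beyond what each setting leaves out.

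The column letters cannot be tied to the replicate numbers of the labels, so the main fit took no pairs. Deviations of same-letter libraries correlated at 0.262, 0.174 and 0.0844 for A, B and C. Among libraries of different letters, only Meis1-OE library C with YFP-CTRL library B correlated positively (0.248). With the letter as a replicate block, 2 higher members and 4 lower signalling genes were called in place of 5 and 7, with 3.39% of all genes higher and 1.18% lower. Sema7a (adjusted p = 0.0359) and Sema5a (0.0414) still passed by edgeR in that model. Sema6c (0.0535), Plxnb2 (0.0561) and Sema3d (0.0567) did not.

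Signs turned for 4 members that had not passed and for 1 sum. Sema3a was at 0.046 on library totals, and at -0.35 to 0.080 with a library left out. Sema3f was at -0.16 and Sema6b at -0.40 with the covariate, and Sema6b was at -0.032 without YFP-CTRL library A and up to 0.67 with another left out. Sema3g was at -0.072, -0.13 and -0.39 without Meis1-OE library B, Meis1-OE library C and YFP-CTRL library C, and up to 0.57 with another left out. The difference in summed ligand level, 25.3 CPM, was -92.7 to 141 CPM with a library left out, and -1.74 CPM without Meis1-OE library C. Over all genes, 665 were higher and 438 lower, against 1048 and 179 on library totals, 338 and 280 with the covariate, 115 to 2717 and 16 to 2498 with a library left out, and 1124 and 1115 by DESeq2. Counts of 1 to 20 in YFP-CTRL EC limit the fold changes of Sema3d and Sema5a.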
